A study of Drosophila melanogaster with 12 samples.

Results

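The genes described here encode the voltage-gated and potassium channels of the fly head and their subunits. They are 36 genes chosen by symbol from a list of channel and channel-subunit genes. The rule uses no measured value, but the list was drawn up with earlier results of these data known. All 36 were found among the 14162 genes of the count table, and all 36 passed the filter on low counts that left 10577 genes for testing. By role they are 7 genes of the sodium channel class, 5 of the calcium channel class, 3 of the sodium leak channel complex, 10 voltage-gated potassium channel genes and modulators, 3 calcium- or sodium-activated potassium channels, 1 hyperpolarization-activated channel, 3 inward rectifiers and 4 two-pore potassium channels.

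Polyadenylated RNA from *Drosophila melanogaster* heads was sequenced in 4 groups of 3 samples, all from flies reared at 29 °C. The question was how gene expression differs between a fly model of Alzheimer's disease and its control, and what Yip7, a serine protease of the fly gut, does to it. Every group carried the driver *nSyb-Gal4*, which acts in all neurons. Control flies (nSyb>w1118) carried the driver without a UAS transgene. AD flies (nSyb>Abeta42) expressed Aβ42 with the Arctic mutation, joined to a secretion signal. AD + Yip7 flies (nSyb>Abeta42+yip7) co-expressed Aβ42 and Yip7, and AD + Yip7∆S flies (nSyb>Abeta42+yip7_S) co-expressed Aβ42 and a Yip7 without its putative transmembrane domain. The flies were 10 days old by the sample descriptions, except the third Control sample, whose description says 2 weeks. Tissue is given there as head, while the same records speak of brains being dissected. Each sample pooled several heads. Because Control carried no UAS transgene, the Aβ42 product and the presence of a UAS transgene cannot be told apart in AD against Control. Likewise, the groups with Yip7 or Yip7∆S carry a further UAS transgene that AD lacks.

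Voltage-gated sodium channels open when a neuron depolarizes and carry the rising phase of the action potential, and calcium channels at the nerve terminal couple that depolarization to transmitter release. Potassium channels let potassium leave the cell, which ends the action potential and holds the resting potential. Different potassium channels set how soon and how often a neuron fires again, and several of these genes were first found in flies through mutants that shake under ether, become paralysed when warmed, or sleep too little. Most of these transcripts are made mainly in neurons, and many come from long genes.

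The samples held between 38064884 and 41737332 counts, so that 3 counts correspond to at most 0.0788 CPM (counts scaled by the TMM-adjusted library total) in any sample. The 36 channel genes took 0.543% to 0.627% of the counts in Control, 0.341% to 0.504% in AD, 0.434% to 0.512% in AD + Yip7 and 0.38% to 0.486% in AD + Yip7∆S. *yip7* itself had 0 to 6.07 CPM in Control, 94.2 to 159 in AD, 123 to 173 in AD + Yip7 and 73.8 to 88.2 in AD + Yip7∆S, so the AD samples, without a *yip7* transgene, overlapped those of AD + Yip7, and every AD + Yip7∆S sample was below every AD sample (log2 -0.75, adjusted p = 0.639, not called). *w*, whose mini-white copy marks transgenes, had 108 to 140.5 CPM in AD, 210 to 221 in AD + Yip7 and 182 to 184.5 in AD + Yip7∆S. The libraries differed in how they held long genes. For the 481 tested genes with over 8 kb of exons, the median log2 difference from the Control mean was -0.64 in AD replicate 3 and -0.43 in AD + Yip7∆S replicate 3, against -0.24 to 0.087 in the other 10 samples, where Control replicate 1 was the highest. Channel genes are long, with a median exon length of 5.81 kb against 2.04 kb for all tested genes with a length, so the counts or medians of each comparison are also given without 1 or both of these libraries, or with the length trend removed. The markers of neurons (*elav*, *nSyb*, *Syt1*, *brp* and 4 others) were detected in every group.

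In AD heads the channel genes were lower than in Control as a group. At an adjusted p under 0.05 (edgeR's quasi-likelihood test), 17 of the 36 were lower and 0 were higher, where 11.6% of all tested genes were lower and 14.4% higher. The fold change pointed down for 34 of the 36, and the median log2 fold change was -0.44, against -0.0053 for all tested genes. At an unadjusted p under 0.05, 24 channel genes differed, all of them lower, and DESeq2 found 20 lower and 0 higher. These 2 counts have no share of all tested genes beside them. The samples did not overlap for 24 channel genes, all lower in AD, a pattern that 21.2% of all tested genes showed. The 17 genes covered every class but the calcium channels: 4 of 7 in the sodium class, 3 of 3 in the leak channel complex, 4 of 10 voltage-gated potassium genes, 2 of 3 calcium- or sodium-activated ones, the 1 hyperpolarization-activated channel, 1 of 3 inward rectifiers and 2 of 4 two-pore channels. With fewer neurons in the head or with less of these RNAs in each neuron, a bulk sample would show the same decrease, and these cannot be told apart.

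**Figure D1:**
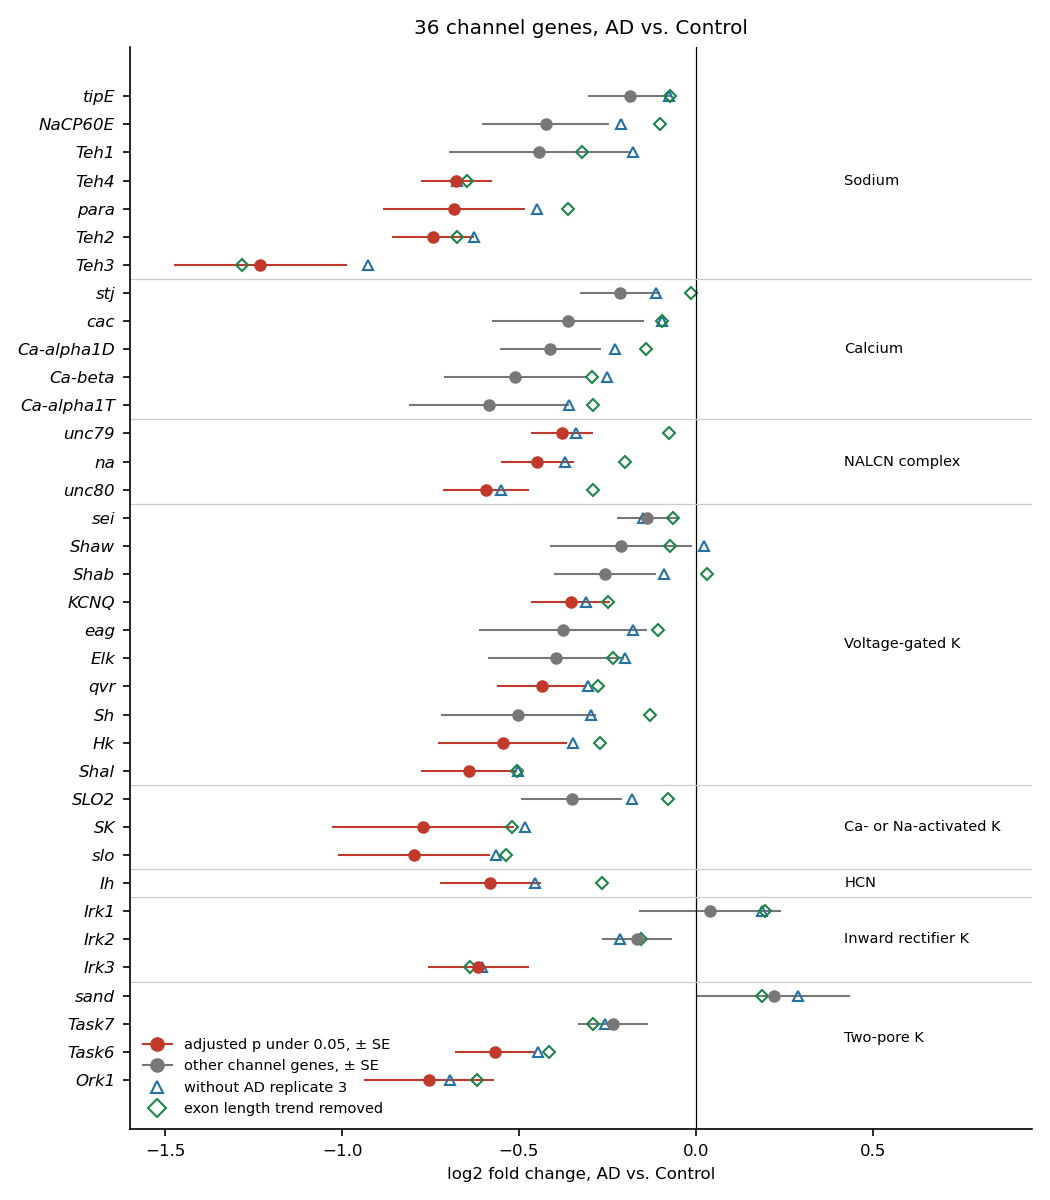
Log2 fold change of each of the 36 channel genes in AD against Control (horizontal axis), ordered by class. Circles with bars of 1 standard error are red for adjusted p under 0.05 and grey otherwise, open triangles are the values without AD replicate 3, and open diamonds those with the exon length trend removed. The 17 red circles all lie to the left of 0, from -1.23 for *Teh3* to -0.35 for *KCNQ*, and 0 of the 5 calcium channel genes are red.

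The sodium channel and several of its accessory subunits were lower in AD. *para*, the gene of the sodium channel that carries neuronal action potentials in flies, lies on the X chromosome (chrX:16455027-16533096, dm6, minus strand). *para* had 264, 202 and 223 CPM in the 3 Control samples and 161, 174 and 95.1 CPM in the 3 AD samples. Every AD sample was below every Control sample, and AD replicate 3 was far below the other AD samples. The fold change was 0.62 (log2 -0.68, standard error 0.20, adjusted p = 0.0242), and the call was lost without Control replicate 1 (adjusted p = 0.0817), Control replicate 3 (0.0548) or AD replicate 3 (0.0581). With the exon length trend removed the log2 fold change of *para* was -0.36 (adjusted p = 0.00315).

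The TipE family are small membrane proteins that assemble with the *para* channel and raise or shape its current. 4 of them, *tipE*, *Teh2*, *Teh3* and *Teh4*, sit side by side on chromosome 3L between 4174859 and 4193788 (dm6), and *Teh1* lies alone on 3R. *Teh3* (chr3L:4182645-4184663, minus strand) had 17.1, 19.6 and 20.8 CPM in Control and 9.88, 10.2 and 4.45 CPM in AD, the largest fall of any channel gene, to 0.43-fold (log2 -1.23, SE 0.24, adjusted p = 0.00289). Its groups lay far apart, and *Teh3* was the only channel gene below 0.5-fold. *Teh2* (chr3L:4178980-4188023, minus strand) had 149, 140.3 and 143.5 CPM in Control and 86.4, 99.2 and 73.3 CPM in AD, a fall to 0.60-fold (log2 -0.74, SE 0.12, adjusted p = 0.000586). *Teh4* (chr3L:4174859-4178270, minus strand) had 25.6, 28.6 and 27.9 CPM in Control and 16.6, 17.5 and 17.3 CPM in AD (0.63-fold, log2 -0.68, SE 0.10, adjusted p = 0.0004). The values of *Teh4* lay close together within each group, while the AD samples of *Teh2* spread more (SD 13 CPM), with AD replicate 3 the lowest. In both genes the groups did not overlap. The 2 other family members differed less: *tipE*, on the plus strand at the end of the same cluster, had 36.8 CPM in Control and 32.3 in AD on average (log2 -0.19, adjusted p = 0.27), and *Teh1* had 33.3 and 24.5 (log2 -0.44, adjusted p = 0.222), with overlapping samples in both cases. *Teh2* and *Teh3* share exon bases on one strand, 7.0% of the exon length of *Teh2* and 14.4% of that of *Teh3*, so that reads from the shared stretch could not be assigned to one of them. *NaCP60E*, which encodes a voltage-gated cation channel related to the *para* channel, had 273 CPM in Control and 204 in AD (log2 -0.42, adjusted p = 0.0996).

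0 of the 5 calcium channel genes passed edgeR's test, although all 5 fold changes pointed down, with 3 at an unadjusted p under 0.05 and the same 3 called by DESeq2. *cac*, on the X chromosome (chrX:11931280-11985087, minus strand), encodes the channel that triggers transmitter release. *cac* had 222, 179 and 195 CPM in Control and 180.3, 189 and 94.2 CPM in AD, so that 2 of the 3 AD samples lay within the Control range and only AD replicate 3 was lower (log2 -0.36, SE 0.21, adjusted p = 0.234). Without AD replicate 3 the log2 fold change of *cac* was -0.096. These 3 were the L-type channel *Ca-alpha1D* (log2 -0.41, adjusted p = 0.0517), the T-type channel *Ca-alpha1T* (-0.58, adjusted p = 0.0733) and the auxiliary subunit *Ca-beta* (-0.51, adjusted p = 0.0797), whose samples did not overlap between the groups. *stj*, the alpha2-delta subunit that brings calcium channels to the synapse, had the smallest difference of the 5 (-0.21, adjusted p = 0.183).

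The sodium leak channel complex was lower in all of its 3 genes. This channel is not gated by voltage in the usual way, passes a steady inward current that brings neurons closer to firing, and takes part in the daily rhythm of clock neurons. *na* (narrow abdomen, chrX:14266367-14277416, plus strand), the pore, had 109.6, 106 and 114 CPM in Control and 81.0, 88.3 and 72.6 CPM in AD (log2 -0.45, SE 0.10, adjusted p = 0.00651). *unc79* (chr3R:19230764-19246130, minus strand) had 244, 269 and 271 CPM in Control and 204, 207 and 192 CPM in AD (log2 -0.38, SE 0.087, adjusted p = 0.00675). *unc80* (chr3R:27662439-27677099, plus strand) had 251, 275.5 and 280.1 CPM in Control and 173, 191 and 169.7 CPM in AD (log2 -0.59, SE 0.12, adjusted p = 0.00335). The products of *unc79* and *unc80* are large accessory proteins without which the channel does not work. In all 3 genes the groups were well apart and AD replicate 3 lay close to the other AD samples. The calls were kept when any 1 library was left out, but with the exon length trend removed the log2 fold changes were -0.20 for *na* (adjusted p = 0.0851), -0.076 for *unc79* (0.686) and -0.29 for *unc80* (0.0835). The exons of the 3 genes sum to 7.88, 10.2 and 10.3 kb.

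Of the 4 founding voltage-gated potassium channels of the fly, only *Shal* passed the test. *Shal* (chr3L:19566851-19584568, minus strand), which carries the fast transient current of the cell body and dendrites, had 103, 78.2 and 85.0 CPM in Control and 60.1, 64.2 and 46.2 CPM in AD, a fall to 0.64-fold (log2 -0.64, SE 0.14, adjusted p = 0.0042). The 3 AD samples of *Shal* were all below the lowest Control sample. *Sh* (Shaker, chrX:17924307-18063247, minus strand), the transient channel of axons and terminals, had 471, 342 and 367 CPM in Control and 269, 368.5 and 197 CPM in AD. One AD sample reached the Control range, and the difference missed the threshold (log2 -0.50, SE 0.22, adjusted p = 0.11). *Shab* (chr3L:2895017-2959579, plus strand), the main delayed rectifier, had 297, 280.4 and 285 CPM in Control and 262, 275 and 185 CPM in AD (log2 -0.26, SE 0.14, adjusted p = 0.2097). *Shaw* (chr2L:3718185-3729145, plus strand), a channel that is open near the resting potential, had 114.5, 79.3 and 87.3 CPM in Control and 91.2, 98.0 and 53.3 CPM in AD, with overlapping samples (log2 -0.21, SE 0.20, adjusted p = 0.4645). The signs of *Shab* and *Shaw* depended on the setting: *Shab* stood at 0.032 with the exon length trend removed, and *Shaw* at 0.024 without AD replicate 3. A sign changed under some setting for 3 other channel genes in this comparison as well, *Teh1*, *SLO2* and *Irk1*, and for none of the 17 that were called.

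The other genes of the voltage-gated potassium class were modulators and relatives of *eag*. *qvr* (quiver or sleepless, chr2R:11442505-11451604, plus strand), a small anchored protein that raises the level and speeds the gating of the *Sh* channel and is needed for sleep, had 613, 503 and 538 CPM in Control and 427, 459 and 337 CPM in AD (0.74-fold, log2 -0.43, SE 0.13, adjusted p = 0.0228). *Hk*, the beta subunit of the *Sh* channel, had 253 CPM in Control and 173 in AD (log2 -0.55, adjusted p = 0.0436). Both modulators of the *Sh* channel were thus called lower, while *Sh* itself was not, though a difference between them was not tested. The call of *qvr* was lost without Control replicate 1 (adjusted p = 0.0884), Control replicate 3 (0.054) or AD replicate 3 (0.0805), and that of *Hk* without any of these (0.154, 0.0772 and 0.138) or AD replicate 1 (0.0741). *KCNQ* (chr2R:10145897-10192394, minus strand), a slow channel that damps repeated firing, had 59.8, 62.7 and 60.8 CPM in Control and 44.5, 53.4 and 45.5 CPM in AD (0.78-fold, log2 -0.35, SE 0.11, adjusted p = 0.034). The groups of *KCNQ* did not overlap, but its call was lost without any single library other than AD replicate 2 (adjusted p 0.0645 to 0.111), and 27.4% of its exon length lies opposite other genes, whose reads cannot be told apart where the counting did not use strand. *eag* (chrX:14955477-15009989, plus strand), whose product is a slowly activating channel, had 173, 130.0 and 135 CPM in Control and 95.6, 161 and 81.0 CPM in AD, where AD replicate 2 lay among the Control samples (log2 -0.38, SE 0.24, adjusted p = 0.264). Its relatives *Elk* (log2 -0.40, adjusted p = 0.152) and *sei* (-0.14, adjusted p = 0.259) did not pass the test either.

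Among the channels opened by calcium or sodium, *slo* and *SK* were called lower, with similar fold changes, and *SLO2* was not. *slo* (chr3R:24662491-24711595, plus strand), the large-conductance channel opened jointly by calcium and depolarization, had 471, 309 and 338 CPM in Control and 226, 274 and 144 CPM in AD, which is 0.58-fold (log2 -0.80, SE 0.22, adjusted p = 0.0163). Every AD sample was below every Control sample. Control replicate 1 stood above the other Control samples, and without it the log2 fold change of *slo* was -0.58 (adjusted p = 0.0672). *SK*, the small-conductance channel opened by calcium alone, had 202 CPM in Control and 118 in AD (log2 -0.77, adjusted p = 0.0422), and its call was lost without Control replicate 1 (adjusted p = 0.149), Control replicate 3 (0.0755), AD replicate 1 (0.063) or AD replicate 3 (0.101). *SLO2*, whose mammalian relatives are opened by sodium, missed the threshold (137 and 108 CPM, log2 -0.35, adjusted p = 0.0885). *Ih* (chr2R:14276130-14300095, plus strand), the pacemaker channel that opens on hyperpolarization, had 409, 397 and 434 CPM in Control and 288, 311 and 229 CPM in AD, with a wide gap between the groups (0.67-fold, log2 -0.58, SE 0.14, adjusted p = 0.00981). The call of *Ih* held with any 1 library left out, and the log2 fold change was -0.26 with the exon length trend removed (adjusted p = 0.0513).

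The inward rectifiers and two-pore channels, which hold the resting potential, split by gene. *Irk3* (chr2L:18711071-18713748, minus strand), an inward rectifier, had 14.4, 18.9 and 17.5 CPM in Control and 11.1, 11.0 and 11.0 CPM in AD (0.65-fold, log2 -0.61, SE 0.14, adjusted p = 0.00733). Its AD values were nearly equal and below every Control value. *Irk2* (86.9 and 77.5 CPM, log2 -0.17, adjusted p = 0.234) and *Irk1* (5.07 and 5.21 CPM, log2 0.039, adjusted p = 0.908) did not pass the test, and 61.0% of the exon length of *Irk1* is shared with other genes on its strand. *Ork1* (chrX:10878054-10891250, minus strand), a leak channel named for its open rectification, had 68.1, 52.1 and 67.6 CPM in Control and 30.1, 46.7 and 34.5 CPM in AD (0.59-fold, log2 -0.76, SE 0.18, adjusted p = 0.00944). The highest AD sample of *Ork1* was below the lowest Control sample. *Task6* (chr3R:13667046-13674542, minus strand), a leak channel related to mammalian acid-sensitive ones, had 57.1, 52.1 and 57.3 CPM in Control and 40.1, 40.8 and 31.5 CPM in AD (0.68-fold, log2 -0.57, SE 0.11, adjusted p = 0.0029). Its relative *Task7* (20.9 and 17.8 CPM, log2 -0.23, adjusted p = 0.0998) missed the threshold. *sand* (sandman), a leak channel of sleep-promoting neurons, was among the least abundant of the genes (2.7 and 3.15 CPM), and its log2 fold change of 0.22 (adjusted p = 0.484) was, with that of *Irk1*, one of the 2 that pointed up.

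**Figure D2:**
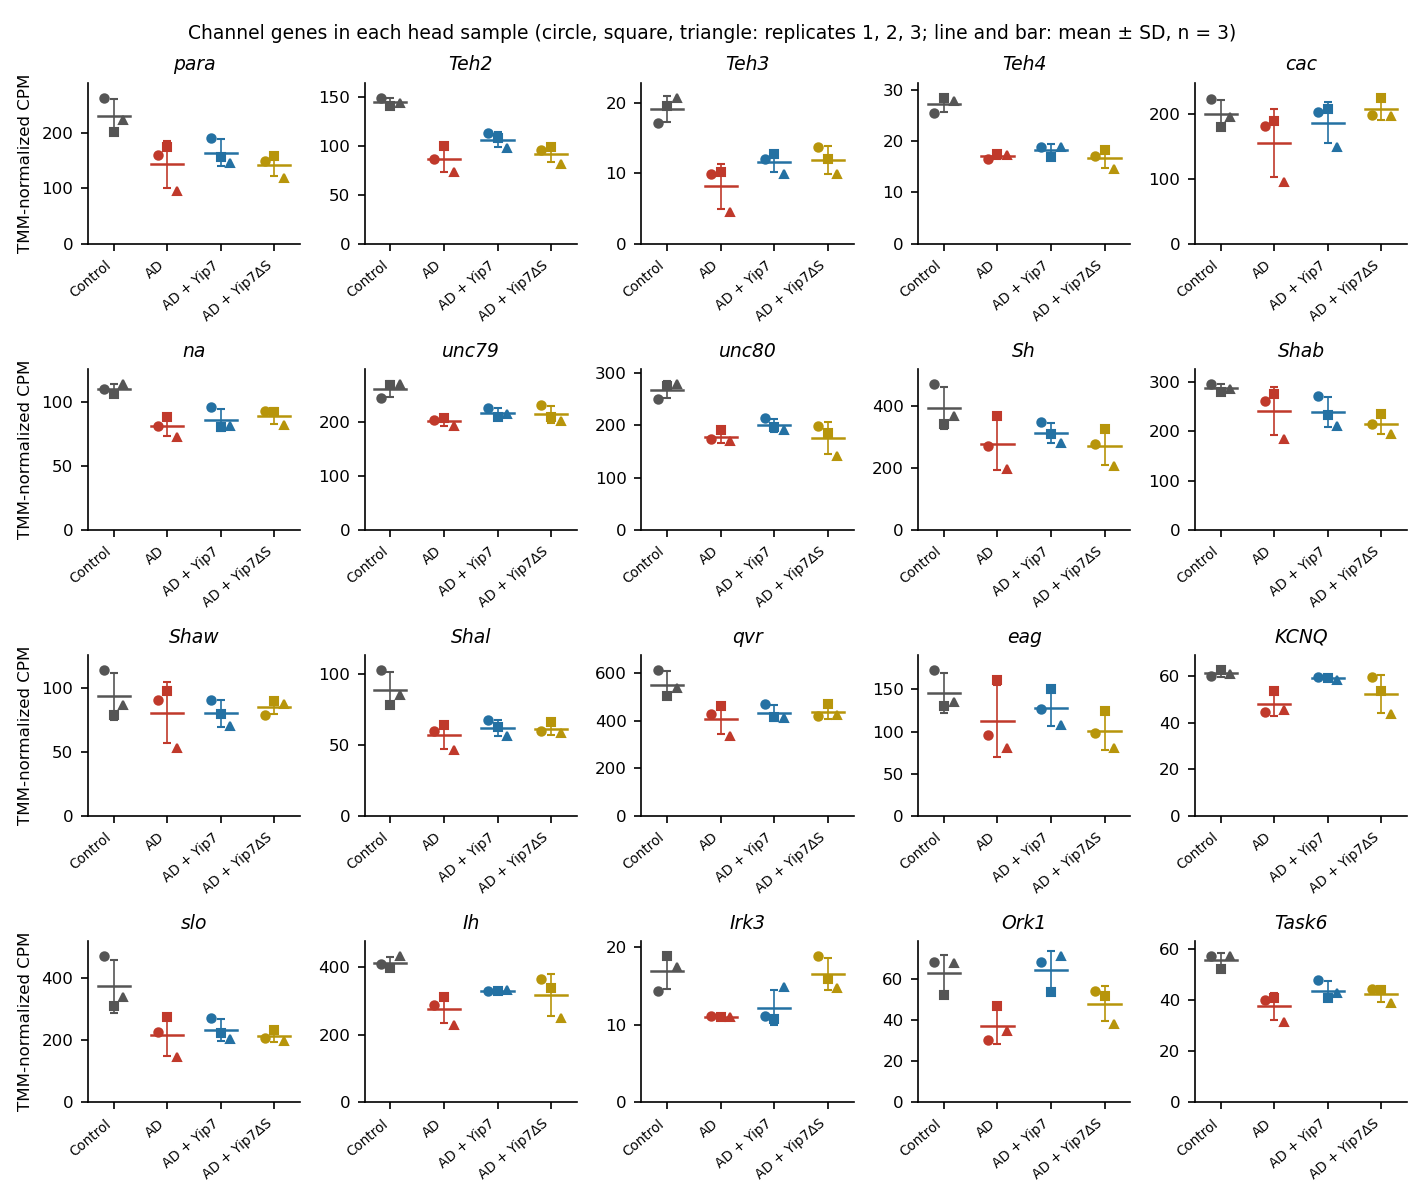
TMM-normalized CPM of 20 channel genes in each of the 12 samples (vertical axes from 0, one panel per gene), with a circle, square and triangle for replicates 1, 2 and 3 of each group, and lines and bars for the mean ± SD (n = 3). For *Teh2*, *Teh3*, *Teh4*, *na*, *unc79*, *unc80*, *Ih* and *Task6* all AD points lie below all Control points with a clear gap, whereas for *cac*, *Shaw* and *eag* the 2 groups overlap.

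The 17 genes called lower in AD were not equally firm. Apart from the 2-fold threshold, which only *Teh3* passed, 17 alternative settings were run. *Teh2*, *Teh3*, *Teh4*, *Shal*, *Irk3*, *Ork1* and *Task6* were called under all 17 of these settings. They included each single library left out, 2 sets of libraries set aside and the length and span trends removed. With single libraries left out, 11 of the 17 calls were always kept: these 7 and *na*, *unc79*, *unc80* and *Ih*. The count of channel genes called ranged from 11 to 23 over these omissions, and the 11 came without Control replicate 1. AD replicate 3 was the lowest AD sample for 28 of the 36 channel genes, against 38.2% of all tested genes, and Control replicate 2 the lowest Control sample for 25. The mean log2 difference of the 36 genes from the Control mean was -0.40, -0.23 and -0.78 in the 3 AD samples, and 0.080, -0.089 and 0.0084 in the Control samples. Without AD replicate 3, 12 channel genes were called lower, 33 fold changes pointed down, and the median was -0.30. The counts of calls under these omissions have no share of all tested genes beside them, so they do not show a difference particular to the channel genes.

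Gene length moved with the difference over all genes. In AD against Control the median log2 fold change of all tested genes went from 0.15 for genes with under 1 kb of exons to -0.036 for 2 to 4 kb, -0.17 for 4 to 8 kb and -0.28 for over 8 kb. Of the channel genes, 27 had over 4 kb of exons and 16 over 8 kb. In each of these bins the channel genes were lower than all tested genes of like length, with medians of -0.48 (6 genes of 2 to 4 kb), -0.43 (11 genes of 4 to 8 kb) and -0.51 (16 genes of over 8 kb). In the bin of over 8 kb, 7 of 16 channel genes were called lower, where 16.8% of all genes of that length were. Within the 36 channel genes, log2 exon length and log2 fold change had a Pearson r of -0.10 and a Spearman rho of -0.16, as a description across genes of the same libraries. With the exon length trend of each library removed, 14 channel genes were called lower, 33 pointed down and the median was -0.26. The count of 14 has no share of all tested genes beside it. The part of the length trend in the decrease was not tested beyond these values.

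**Figure D3:**
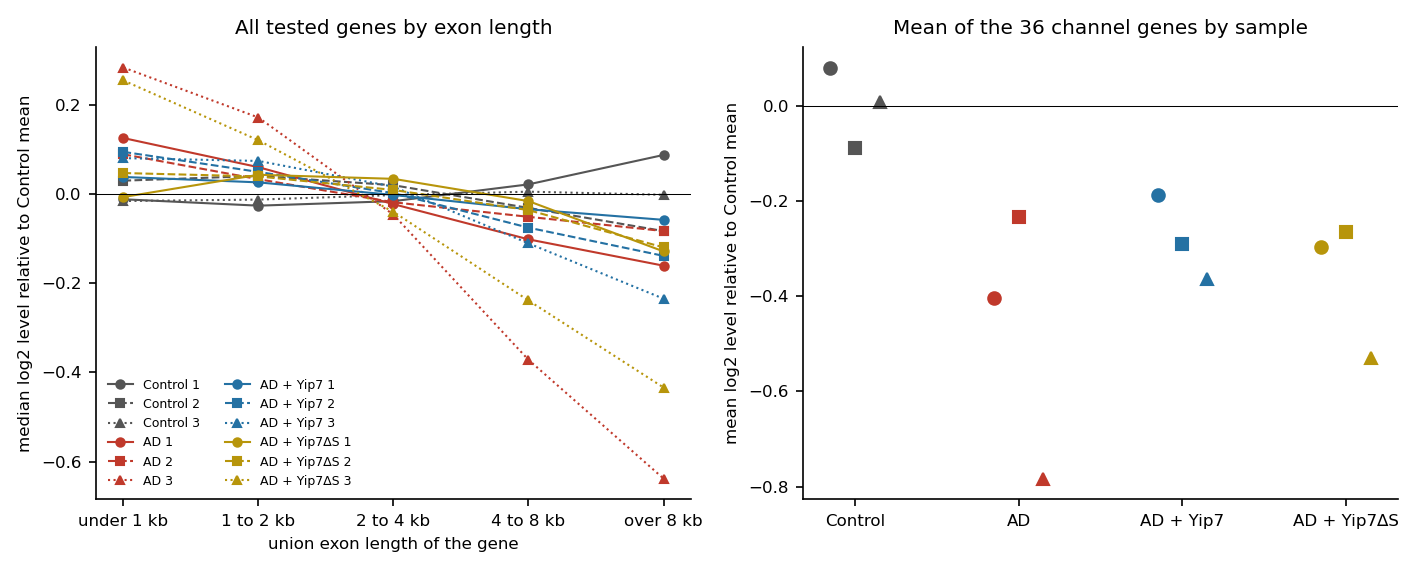
Left, median log2 level of all tested genes relative to the Control mean (vertical axis) in 5 bins of exon length (horizontal axis), one line per sample. Right, the mean log2 level of the 36 channel genes relative to the Control mean, one point per sample. In the bin of over 8 kb, AD replicate 3 (-0.64) and AD + Yip7∆S replicate 3 (-0.43) are the lowest lines, and on the right the same samples are the lowest of their groups (-0.78 and -0.53).

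The cell type markers moved in the same comparison. All 8 neuronal markers pointed down in AD, with a median log2 fold change of -0.42, close to the -0.44 of the channel genes, though only *nSyb*, the synaptobrevin of synaptic vesicles, was called (-0.44, adjusted p = 0.00737). Their summed level was 5530 to 7230 CPM in Control and 3290 to 5080 CPM in AD. The 7 glial markers pointed down as well (median -0.49), and 5 of them were called, among them the glutamate transporter gene *Eaat1* (-0.84, adjusted p = 0.0002), with sums of 1660 to 1940 CPM in Control and 1350 to 1370 in AD. The 6 photoreceptor markers had a median of -0.34 with 0 called, sums of 54200 to 68400 CPM in Control and 47300 to 54200 in AD. Of the 6 muscle markers 1 was called higher and 0 lower, of the 6 fat body markers 3 were called lower, and all 5 gut markers tested were called higher, with sums of 4.71 to 9.77 CPM in Control and 182 to 226 CPM in AD, and *betaTry* at 0 in every Control sample. The part of these cell types in the channel values was not tested.

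Genes that work beside the channels included some that were lower in AD. Of the 12 ion pumps and transporters listed, 5 were called lower and 0 higher (median log2 fold change -0.28). They include *Atpalpha* and *nrv3*, subunits of the sodium pump that restores the gradients the channels run down (-0.51 and -0.56), the sodium-calcium exchanger *Calx* (-0.48) and the chloride cotransporters *kcc* and *Ncc69* (-0.54 and -0.59). Of the 10 further channel subunits and binding partners 9 were tested and 3 were called lower (median -0.26): *Slob*, whose product binds the *slo* channel (-0.40), *dysc*, which acts on the *slo* channel as well (-0.59), and the exchanger *Nckx30C* (-0.49). The ryanodine receptor gene *RyR* was the 1 of 4 genes of calcium release called lower (-0.41). Of the 8 RNA-binding and signalling regulators 2 were called lower (median -0.42): *pum*, which represses translation of *para* RNA (-0.53), and calmodulin, *Cam* (-0.40). These lists share libraries with the channel genes and were described by counts alone.

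Co-expression of Yip7 was compared with AD next. Only *Ork1* was called in AD + Yip7 against AD, which is 1 of 36 channel genes higher and 0 lower, where 0.945% of all tested genes were higher and 0.86% lower. *Ork1* had 68.3, 53.7 and 71.1 CPM in AD + Yip7, against 30.1, 46.7 and 34.5 in AD, so that all AD + Yip7 samples were above all AD samples and within or just above the Control range of 52.1 to 68.1 CPM. The log2 fold change was 0.80 (SE 0.18, adjusted p = 0.04896), and DESeq2 gave 0.79 (adjusted p = 0.00212). The call rests near the threshold: it was lost without any single library other than AD replicate 2 (adjusted p 0.0525 to 0.198) and with the replicate number as a block (0.0856). Fold changes pointed up for 31 of the 36 channel genes, with a median of 0.15 against 0.019 for all tested genes, and 4 differed at an unadjusted p under 0.05. Without AD replicate 3 the median was 0.0073 and 16 of the 36 pointed down. The AD + Yip7 samples of *KCNQ* (59.6, 59.1 and 58.4 CPM), *Ih* (330.1, 330.2 and 332) and *unc79* (225.5, 209.6 and 215) also lay above all AD samples, without passing the test (log2 0.30, 0.26 and 0.11, adjusted p = 0.243, 0.485 and 0.667). In all, 4 channel genes had AD + Yip7 samples that were all higher, a pattern of 10.1% of all tested genes.

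The other 35 channel genes did not pass the test in AD + Yip7 against AD. *para* had 191, 156 and 146 CPM there (log2 0.20 against AD, SE 0.20), *slo* 270, 223 and 203 (0.11, SE 0.21) and *Shal* 67.3, 62.5 and 56.3 (0.13, SE 0.14). *Teh2* had 112.7, 107.5 and 97.6 CPM (0.30, SE 0.12, adjusted p = 0.28), and *Teh3* 12.1, 12.7 and 9.94 (0.50, SE 0.24, adjusted p = 0.413). The means of these 5 genes lay between those of AD and Control, and their samples overlapped those of AD. For 31 of the 36 genes the interval of 2 standard errors on either side of the log2 fold change held 0.

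AD + Yip7∆S against AD gave 0 calls among the 36 channel genes with edgeR, where 1.85% of all tested genes were called. At an unadjusted p under 0.05 there were 4, and DESeq2 called 2, *Irk3* and *sand*. *Irk3* had 18.8, 15.9 and 14.8 CPM in AD + Yip7∆S, all above its AD values of 11.0 to 11.1 and near its Control values (log2 0.58, SE 0.14, edgeR adjusted p = 0.0608, DESeq2 adjusted p = 0.00952). *sand* went the other way, with 2.06, 2.11 and 1.35 CPM in AD + Yip7∆S against 2.82, 3.76 and 2.88 in AD (log2 -0.77, SE 0.22, edgeR adjusted p = 0.107, DESeq2 adjusted p = 0.0329). At 1 to 4 CPM *sand* had the fewest counts of the 36 genes. *cac* was at 198, 224.5 and 196.5 CPM, above all AD samples (log2 0.42, adjusted p = 0.391). The median over the 36 genes was 0.086. Without AD replicate 3 but with AD + Yip7∆S replicate 3 kept, the median was negative, at -0.033. With both of these libraries set aside it was positive again, so its sign depended on which library was left out. All samples were higher than those of AD for 2 channel genes (9.1% of all tested genes) and lower for 1 (8.95%).

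The groups with the 2 forms of Yip7 were also set against each other. In AD + Yip7 against AD + Yip7∆S, 0 of 36 channel genes were called by edgeR and 0 by DESeq2, with 3 at an unadjusted p under 0.05, where 0.0662% of all tested genes were called by edgeR. The 3 were *Irk3*, lower in AD + Yip7 (log2 -0.44, SE 0.14, adjusted p = 0.344), *Ork1*, higher (0.42, SE 0.18, adjusted p = 0.463), and *sand*, higher (0.52, SE 0.22, adjusted p = 0.457). *Ork1* had 54.0, 51.7 and 38.2 CPM in AD + Yip7∆S. For 32 of the 36 genes the interval of 2 standard errors held 0, and the log2 fold changes ran from -0.44 to 0.52, with a median of 0.095 and 9 pointing down. Without AD + Yip7∆S replicate 3 the median was 0.023 and 17 pointed down, with 0 calls by edgeR and 1 gene at an unadjusted p under 0.05. With the exon length trend removed it was 0.040, with 0 calls and 4 genes at an unadjusted p under 0.05. Thus a difference between the 2 forms was not shown for any channel gene, and *Ork1* passing the test with Yip7 but not with Yip7∆S is no difference between them by this test.

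Against Control, most channel genes pointed down in both groups with a Yip7 form. In AD + Yip7, 6 of 36 were called lower and 0 higher (5.44% and 9.13% of all tested genes), with 34 pointing down and a median of -0.33. The samples did not overlap for 19 lower genes (18.6% of all tested genes) and 1 higher gene (21.3%). The 6 genes called lower were *Teh2* (log2 -0.45), *Teh4* (-0.58), *na* (-0.36), *unc80* (-0.42), *Shal* (-0.52) and *Irk3* (-0.47), of which *Irk3* had overlapping samples. In AD + Yip7∆S, 8 of 36 were called lower and 0 higher (7.94% and 10.9% of all tested genes), with 34 pointing down and a median of -0.38: *para* (-0.69), *Teh2* (-0.65), *Teh4* (-0.71), *unc79* (-0.29), *unc80* (-0.61), *Shal* (-0.53), *slo* (-0.81) and *Task6* (-0.39). There the samples did not overlap for 25 lower genes (18.1%) and 1 higher gene (19%). No channel gene was called higher than Control in either group, with 1 and 1 higher at an unadjusted p under 0.05, both *Irk1*. In AD + Yip7, edgeR gave *Irk1* a log2 fold change of 0.61 (adjusted p = 0.0564), and it was called higher in 8 of 17 alternatives, DESeq2 among them (adjusted p 0.0151 to 0.0482). In AD + Yip7∆S it was at 0.48 (adjusted p = 0.113) and was called higher in 3 of 17 alternatives: AD and AD + Yip7∆S replicates 3 set aside, and the exon length or the span trend removed (adjusted p 0.0264 to 0.0481). *Irk1* had 5.07 CPM in Control, and 61.0% of its exon length is shared with other genes on its strand. Its exons overlap those of *cnc*, which had 294 CPM in Control, and how shared reads were counted is not known. The 3 comparisons with Control share the same 3 Control samples, so their values stand side by side without a test of their likeness.

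Those counts moved with single libraries. The 6 calls of AD + Yip7 against Control became 3, 2 and 1 without Control replicates 1, 2 and 3, and 1 and 2 without AD + Yip7 replicates 2 and 3. The 8 calls of AD + Yip7∆S became 4 and 5 without Control replicates 1 and 3, and 4 without AD + Yip7∆S replicate 3. With AD replicate 3 and AD + Yip7∆S replicate 3 both set aside they were 18 and 15, of which 17 and 14 were lower and 1 each was *Irk1*, higher. With the exon length trend removed they were 11 and 11, of which 10 and 10 were lower and *Irk1* again higher. DESeq2 called 12 genes in AD + Yip7, of which 11 were lower, and 17 in AD + Yip7∆S, all lower. The shares of all tested genes called under these settings are not set beside these counts. A rise or fall is therefore not read as particular to the channel genes. AD + Yip7∆S replicate 3 was the lowest sample of its group for 30 of the 36 channel genes, against 40.4% of all tested genes, as AD replicate 3 was in AD.

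**Figure D4:**
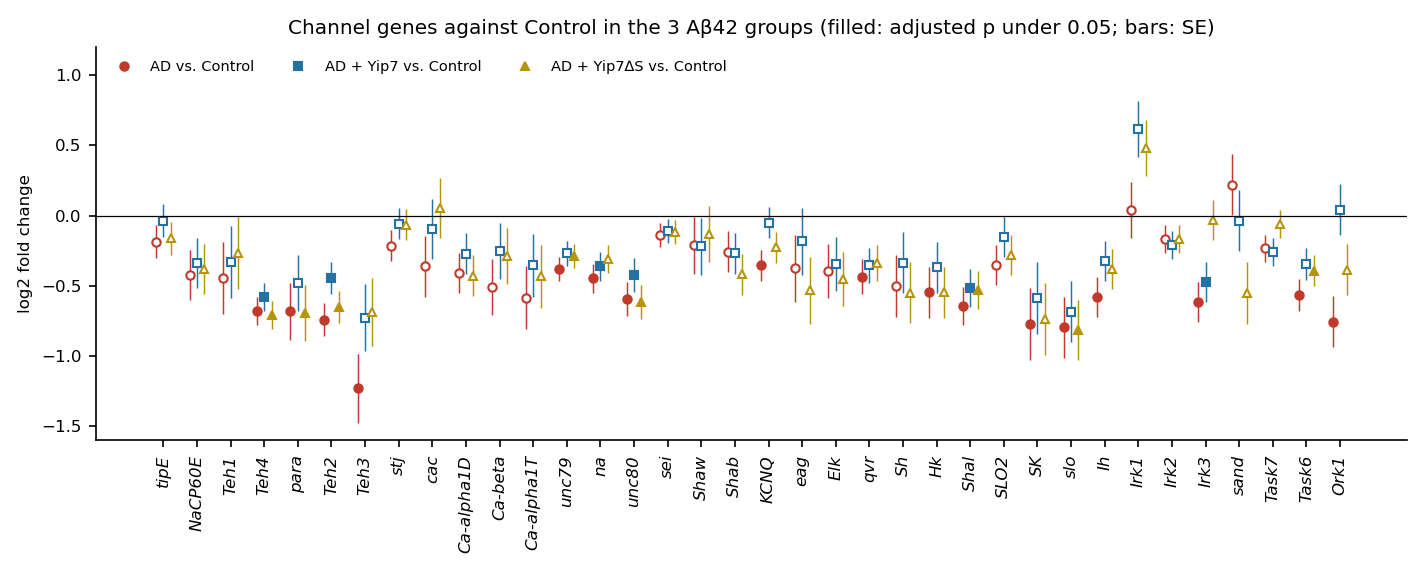
Log2 fold change against the same 3 Control samples (vertical axis) of the 36 channel genes (horizontal axis) in AD (circles), AD + Yip7 (squares) and AD + Yip7∆S (triangles), filled for adjusted p under 0.05, with bars of 1 standard error. *Teh2*, *Teh4*, *unc80* and *Shal* are filled in all 3 groups, *Ork1* lies at -0.76 in AD and 0.040 in AD + Yip7, and *Irk3* lies at -0.61 in AD and -0.034 in AD + Yip7∆S.

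Per kb of exon, the channel genes spanned a wide range of levels in Control heads. *qvr* stood first at 108 CPM per kb (SD 11, n = 3), ahead of *Teh2* (43.9, SD 1.4), *stj* (39.0, SD 1.1), *slo* (36.7, SD 8.5) and *Irk2* (34.8, SD 2.5). *qvr* lay far above *Teh2*, *Teh2* above *stj*, and *stj* above *Irk2*, beyond their spread. *slo*, with its wider spread, did not differ from *stj* or *Irk2* beyond it. Of the pore genes of the voltage-gated potassium class, *Shab* (25.3, SD 0.74) was above *Shal* (19.3, SD 2.8), *Shaw* (18.7, SD 3.7) and *Sh* (17.3, SD 3.0), which did not differ beyond their spread. *para* was at 14.1 CPM per kb (SD 1.9), between *cac* (16.7, SD 1.8) and *eag* (13.7, SD 2.2). The length is the union of all exons, which can exceed that of any single transcript. *Sh* has 17 annotated transcripts and *para* 60, against 3 for *Shal*, and the effect of this on the order was not tested. *sand* (1.37, SD 0.25) and *Irk1* (0.967, SD 0.10) came last. The order in AD still began with *qvr* (79.9), *stj* (33.6), *Irk2* (31.0) and *Teh2* (26.3), so that *Teh2* passed from the second to the fourth place.

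By position, 9 of the 36 genes lie on the X chromosome, 9 on 2R, 8 on 3R, 6 on 3L and 4 on 2L. Exon bases of 12 channel genes are shared with another gene on one or the other strand, and 6 share over 10% of their exon length: *Irk1* (61.0%), *KCNQ* (27.4%), *tipE* (19.0%), *sei* (14.6%), *Teh3* (14.4%) and *Irk3* (10.8%). The gene opposite *Irk3*, *Grip71*, moved the other way, with a log2 fold change of 0.53 in AD (adjusted p = 0.0207), and *CG18011*, opposite *KCNQ*, differed little (0.050, adjusted p = 0.833).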

How the data were processed

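The deposited table holds raw counts per gene for 14162 gene symbols in 12 samples, without normalization. The submitters' processing notes name FastQC, HISAT2 2.1.0, StringTie 1.3.1, DESeq2 1.36.0 and the build dm6, whereas the authors' methods name fastp, HISAT2, HTSeq-count and DESeq2. The annotation and the strand setting are not given in the sources used here, and the library kit and provider differ between labels and methods. 0 columns of other samples were found.

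The channel genes and the gene lists were chosen with earlier results of these data known. In R 4.3.3, edgeR 4.0.16 (limma 3.58.1) filtered the counts with filterByExpr, scaled them with TMM and fitted 4 group means to all 12 samples with glmQLFit. Each of 6 comparisons was tested with glmQLFTest and adjusted by Benjamini-Hochberg over 10577 genes, with a threshold of 0.05. Standard errors (SE) are the log2 fold change over the root of the F statistic. The methods give the samples as biological replicates of pooled heads, and SD and n refer to these. The chi-square per degree of freedom between replicates was at least 20.4, so no library was taken as deposited more than once. CPM use TMM-scaled totals and log2 levels a prior count of 2. The procedure was tested on simulated data for AD against Control. There it called 74% of the genes changed 2-fold and 13% of those with a smaller change. Unchanged genes made up 4.4% of its calls. A gene that was not called can therefore still differ.

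Values in every sample are given for the 14 called genes with the smallest adjusted p over the comparisons and for the pore genes *para*, *cac*, *Sh*, *Shab*, *Shal*, *Shaw*, *eag*, *slo* and *KCNQ*. The other genes are given by mean or range. Counts at an unadjusted p under 0.05, and most counts under the alternatives, are given without the share of all tested genes. Such counts do not show a difference particular to the channel genes. Positions, lengths and overlaps come from Ensembl release 115 (dm6 coordinates), in which 13934 of the symbols and all 36 channel genes were found. Exon length is the union of a gene's exons. Alternatives were DESeq2 1.42.0, DESeq2's size factors (RLE), upper quartile scaling, no filter or at least 10 counts in every sample, only the 6 samples compared, the replicate number as a block, a 2-fold threshold and each library left out. Chosen after seeing the data were 2 sets of libraries set aside and the trend of each library with exon length or genomic span removed by a loess offset. *CG4587*, listed beside *stol*, is the same gene and was counted once.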

Additional observations from a re-analysis of the deposited data

How the results depend on the processing

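In AD against Control every call was lower under every alternative run, 32 to 35 of the 36 channel genes pointed down, and single libraries left out gave 11 to 23 calls. Every alternative but the 2-fold threshold was tabulated for 37 pairs of a gene and a comparison. These are the calls of each comparison and the pore genes in AD against Control. Of their values 523 kept direction and side of the threshold, 98 lost and 3 gained the call, and 5 changed sign, none of them called: *Shab* in AD against Control stood at 0.032 with the exon length trend removed and 0.056 with the span trend removed, and *Shaw* at -0.38 to 0.024 with single libraries left out, 0.022 with AD and AD + Yip7∆S replicates 3 set aside and 0.19 with Control replicate 1 set aside as well. Over all 36 genes, 6 comparisons and 17 alternatives, 251 of 3672 values changed sign, 0 of them in a called gene, with 72 in AD + Yip7 against AD, 87 in AD + Yip7∆S against AD and 54 between the Yip7 forms. In AD against Control 9 of 612 did, in *Shab*, *Shaw*, *Teh1*, *SLO2* and *Irk1*. With a fold of at least 2 added, the calls were 1 in AD against Control (*Teh3*), 0 in AD + Yip7 against AD, and 0 and 0 in AD + Yip7 and AD + Yip7∆S against Control.

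The 1 call of AD + Yip7 against AD became 0 with RLE size factors, with at least 10 counts in every sample, with only the 6 samples compared and with both sets of libraries set aside, and ranged from 0 to 1 with single libraries left out. AD + Yip7∆S against AD had 0 calls, 2 with DESeq2 and 1 with either the exon length or the span trend removed. AD + Yip7 against Control had 6 calls (all lower), 12 with DESeq2, 14 with the 6 samples compared, 18 and 14 with the 2 and 3 libraries set aside, 11 and 12 with the exon length and span trends removed, and 1 to 7 with single libraries left out. AD + Yip7∆S against Control had 8 calls, 17 with DESeq2, 15 with 2 libraries set aside and 4 to 7 with single libraries left out. Some of these counts include *Irk1* as 1 higher call. For AD + Yip7 they are those with DESeq2, with the 6 samples compared, with 2 libraries set aside and with either trend removed. The count of 7, which came without AD + Yip7 replicate 1, includes it as well. For AD + Yip7∆S it is the count with 2 libraries set aside. The counts under these alternatives stand without the share of all tested genes called in the same setting, and why they moved was not tested.

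Of 18 same-numbered pairs of samples, 5 had deviations correlated over 0.1 (range -0.39 to 0.29), and of 36 different-numbered pairs 11 had (-0.264 to 0.498). All 5 lay between the Aβ42 groups. Between those groups, same-numbered pairs ranged from -0.018 to 0.29 and different-numbered ones from -0.264 to 0.188. Whether the numbers mark a pairing there was not tested. With the number as a replicate block the calls were 22 in AD against Control, 0 in AD + Yip7 against AD, 0 in AD + Yip7∆S against AD, 0 between the Yip7 forms, 7 in AD + Yip7 against Control and 14 in AD + Yip7∆S against Control.

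Over all tested genes DESeq2 called 434 in AD + Yip7 against AD, 483 in AD + Yip7∆S against AD and 132 between the Yip7 forms, where edgeR called 191, 196 and 7. Counting error weighs most on *sand* and *Irk1*, which had the lowest mean levels of the channel genes.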
